A study of Mus musculus with 5 samples.

Results

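The genes Pou5f1, Sox2, Nanog, Sall4, Utf1, Dppa2, Dppa4 and Foxd3 encode nuclear factors that keep early mouse cells pluripotent. They were chosen by name, and all 8 were found among 23951 genes of the expression table. Levels were measured by RNA sequencing in 5 libraries of mouse cells, in FPKM (fragments scaled by transcript length and library size), which allows levels to be compared between genes. The confidence bounds that the authors deposited with each level are given in parentheses. There were 5 groups of 1 library each, so no difference was tested against a spread between cultures and no p-value is given.

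All cells go back to the E14 line of mouse embryonic stem cells (ESCs), the naive state of pluripotency. Epiblast stem cells derived from ESCs (EpiSCs), the primed state, were kept on serum-coated plates in N2B27 medium with FGF2 at 12 ng/ml and Activin A at 20 ng/ml. They were left untreated or received BMP-4, a ligand of the TGF-beta family (10 ng/ml), and were taken after 1.5 h or 24 h. The ESCs called BMP-4 ESCs here were kept with leukaemia inhibitory factor (LIF) and BMP-4 (10 ng/ml) in a basal medium. The serum ESCs grew on gelatin with LIF at 1000 U/ml and 15% fetal bovine serum. The ESC groups therefore differ in medium as well as in BMP-4. The study asked how BMP signalling acts in the naive and in the primed state.

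Pou5f1 (also called Oct4) is a POU-domain transcription factor that binds DNA together with Sox2, an HMG-box factor, at paired sites near many genes of pluripotent cells, their own genes and Nanog included. Nanog is a homeodomain factor that stabilises the naive state. Sall4 is a zinc finger protein that recruits the NuRD corepressor, Utf1 binds chromatin at developmental genes, and Foxd3 is a forkhead factor needed to maintain the epiblast. Dppa2 and Dppa4 are neighbouring genes whose SAP-domain proteins act as a pair, and in mouse ESCs they activate genes of the embryo's earliest cleavage stage.

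Because Sox2, Nanog and Pou5f1 are known to be bound by the Pou5f1 and Sox2 pair, the 250 bases before their starts are shown first. The windows come from RefSeq on build GRCm38.p6, while all gene positions below are those of the expression table on mm9. In the windows, capitals mark TTTGCAT, part of the octamer that POU factors bind, and ACAATG, a core that Sox factors bind, on either strand.
Nanog, chr6:122707239-122707488, plus strand: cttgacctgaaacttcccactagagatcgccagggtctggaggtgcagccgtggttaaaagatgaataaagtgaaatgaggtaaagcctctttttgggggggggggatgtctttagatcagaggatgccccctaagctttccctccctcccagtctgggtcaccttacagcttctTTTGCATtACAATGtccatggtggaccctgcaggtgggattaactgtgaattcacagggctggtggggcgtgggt
Sox2, chr3:34649745-34649994, plus strand: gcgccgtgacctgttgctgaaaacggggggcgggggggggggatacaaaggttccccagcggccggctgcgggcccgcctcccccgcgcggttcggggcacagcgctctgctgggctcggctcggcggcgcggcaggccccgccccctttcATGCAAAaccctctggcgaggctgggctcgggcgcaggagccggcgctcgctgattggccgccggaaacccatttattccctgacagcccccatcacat
Pou5f1, chr17:35505782-35506031, plus strand: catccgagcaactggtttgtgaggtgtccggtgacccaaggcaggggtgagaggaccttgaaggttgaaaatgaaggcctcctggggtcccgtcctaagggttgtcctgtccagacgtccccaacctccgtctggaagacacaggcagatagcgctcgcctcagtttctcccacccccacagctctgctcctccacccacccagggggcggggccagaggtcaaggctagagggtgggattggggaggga

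In the Nanog window the POU and Sox letters stand 1 base apart, 75 to 62 bases before the start. TTTGCAT followed after 1 base by ACAATG was found in 2 of 32851 mouse windows of this length, and both belong to Nanog, which has 2 overlapping windows for 2 starts. TTTGCAT alone occurred in 4.12% of all windows and ACAATG alone in 10.7%. The Sox2 window held TTTGCAT on the minus strand, 99 to 93 bases before the start, and no ACAATG. The Pou5f1 window shown held neither, and a second Pou5f1 window, for a start inside the gene, held ACAATG. The single windows of Utf1 and Foxd3 held neither motif. The octamer ATTTGCAT, which contains TTTGCAT and occurred in 1.6% of all windows, was in none of the 7 windows of these 5 genes. The GC box GGGCGG, found in 32.7% of all windows, was present in the Sox2 and Utf1 windows and in the first Pou5f1 window. Sall4, Dppa2 and Dppa4 were not matched. These matches describe letters only, and binding was not measured here.

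Naive and primed markers separated the cell types as labelled. The summed level of 10 naive markers, Zfp42, Klf2 and Esrrb among them, was 9.88 to 14.8 FPKM in the 3 EpiSC libraries and 2857 to 3129 FPKM in the 2 ESC libraries. For 10 primed markers, Fgf5 and Dnmt3b among them, it was 607 to 804 FPKM in EpiSCs and 67.2 to 75.4 FPKM in ESCs. For 8 fibroblast markers it was 5.18 to 6.66 FPKM in EpiSCs and 2.96 to 4.72 FPKM in ESCs, with Dcn listed at 0 in all libraries. Markers of other fates also differed between the cell types. The sum of 7 endoderm markers was 8.94 to 25.2 FPKM in EpiSCs and 1.42 to 2.09 FPKM in ESCs. Those averaging 1 FPKM or more were each below 1 FPKM in both ESC libraries. They passed that filter only through their EpiSC levels, so their direction is not counted. Sox7, which did not pass, stood at 0 FPKM in untreated EpiSCs and 0.532 FPKM in serum ESCs. The sum of 7 trophoblast markers was 173 to 263 FPKM in EpiSCs and 30.9 to 43.6 FPKM in ESCs, most of it from the keratin genes Krt8 and Krt18. Krt8 and Krt18 stood at 81.0 and 96.0 FPKM in untreated EpiSCs and at 28.4 and 7.38 FPKM in serum ESCs. Tfap2c, another of the trophoblast markers, stood at 6.10 FPKM in untreated EpiSCs and 6.47 FPKM in serum ESCs. The sum of 8 mesoderm markers was 14.0 to 108 FPKM in EpiSCs and 1.60 FPKM in both ESC libraries. Most of it in EpiSCs was T, which is also among the 10 primed markers. The sum of 8 neural markers was 17.6 to 25.5 FPKM in EpiSCs and 44.5 to 75.2 FPKM in ESCs. Most of it was Tubb3, at 24.8 FPKM in untreated EpiSCs and 71.9 FPKM in serum ESCs. The part of these markers of other fates in the lower levels of the 8 factors in EpiSCs was not tested. Depth, estimated from the steps that single reads leave in low FPKM values, was about 10600000 reads for untreated EpiSCs, 11900000 reads after 1.5 h and 14400000 reads after 24 h, 9630000 reads for BMP-4 ESCs and 9180000 reads for serum ESCs.

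Both ESC levels stood above all 3 EpiSC levels for 8 of 8 factors. Of the 11005 genes that averaged 1 FPKM or more and had a usable estimate in every library, 35.7% showed that order. For 4 factors, Sox2, Nanog, Dppa2 and Dppa4, the gap was at least 2-fold in FPKM + 1, against 6.62% of all genes. For 2 factors, Dppa2 and Dppa4, every ESC interval lay above every EpiSC interval, against 2.09% of all genes. In bulk RNA, fewer cells that express a gene and less of its RNA per cell cannot be told apart.

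**Figure D1:**
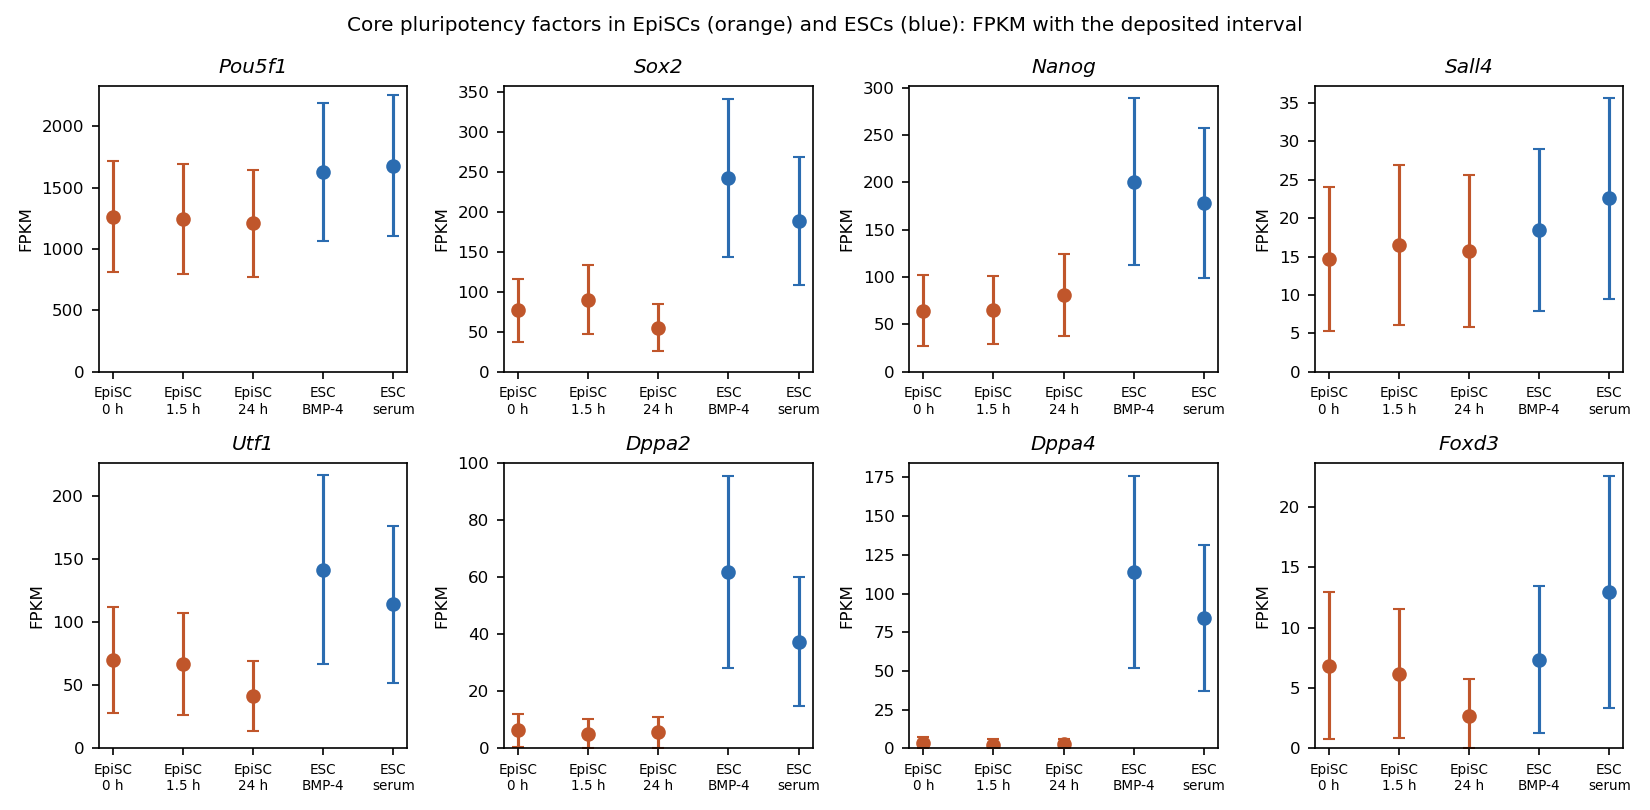
Levels of the 8 factors in FPKM (y axis, from 0, with its own scale for each gene) in the 5 libraries (x axis); points are the deposited estimates and bars the deposited confidence bounds, with 1 library per group. The EpiSC points lie below the ESC points for each gene, by the largest ratio for Dppa4, whose EpiSC values are 2.41 to 3.20 FPKM.

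Pou5f1 (chromosome 17, 35642977 to 35647722) was the most abundant of the 8 and varied least. It stood at 1264 (809 to 1718), 1242 (796 to 1688) and 1208 (774 to 1641) FPKM in untreated, 1.5 h and 24 h EpiSCs, against 1625 (1066 to 2185) FPKM in BMP-4 ESCs and 1677 (1102 to 2252) FPKM in serum ESCs. All 5 intervals overlapped. The highest level was 1.39 times the lowest, and 66.3% of all genes spanned a wider range on the log2(FPKM + 1) scale. In each library Pou5f1 ranked above at least 99.3% of the genes at 1 FPKM or more.

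Sox2 (chromosome 3, 34459303 to 34576915, a span that the table also gives for the noncoding gene Sox2ot) stood at 77.2 (37.7 to 117), 90.2 (46.8 to 134) and 55.5 (26.2 to 84.8) FPKM in untreated, 1.5 h and 24 h EpiSCs. It stood at 243 (144 to 342) FPKM in BMP-4 ESCs and at 189 (108 to 269) FPKM in serum ESCs. The ESC values were the higher ones, and the 24 h EpiSC value was the lowest of the 5. Sox2ot itself stood at 0.275 FPKM or less in every library. The level of Sox2 in untreated EpiSCs was 3.12-fold lower than in BMP-4 ESCs, with intervals apart, and 2.43-fold lower than in serum ESCs, with overlapping intervals. These folds and those below are ratios of FPKM + 1 unless called ratios of FPKM.

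Nanog (chromosome 6, 122657507 to 122664651) stood at 64.7 (27.0 to 102), 64.8 (28.9 to 101) and 81.4 (38.3 to 124) FPKM in untreated, 1.5 h and 24 h EpiSCs, against 201 (113 to 289) FPKM in BMP-4 ESCs and 178 (99.3 to 258) FPKM in serum ESCs. The groups of cells did not overlap in level, and among EpiSCs the 24 h library was highest. Nanog was 3.07-fold lower in untreated EpiSCs than in BMP-4 ESCs, with intervals apart, and 2.73-fold lower than in serum ESCs, with intervals that overlapped.

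Sall4 (chromosome 2, 168573832 to 168592701) varied little, as Pou5f1 did. Its level was 14.7 (5.25 to 24.1), 16.5 (6.06 to 26.9) and 15.7 (5.79 to 25.6) FPKM in untreated, 1.5 h and 24 h EpiSCs, 18.4 (7.87 to 28.9) FPKM in BMP-4 ESCs and 22.6 (9.52 to 35.7) FPKM in serum ESCs. All 5 intervals overlapped. Of all genes, 54.9% spanned a wider range. Its relative Sall1 stood at 11.5 FPKM in untreated EpiSCs and 33.8 FPKM in serum ESCs, a 2.78-fold lower level with overlapping intervals. Sall2, another relative, stood at 8.34 FPKM in untreated EpiSCs and 0.714 FPKM in serum ESCs, 5.45-fold higher with intervals apart.

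Utf1 (chromosome 7, 147129755 to 147131011) stood at 70.2 (28.3 to 112), 66.9 (26.5 to 107) and 41.5 (13.7 to 69.3) FPKM in untreated, 1.5 h and 24 h EpiSCs. It stood at 142 (66.9 to 216) FPKM in BMP-4 ESCs and 114 (51.9 to 176) FPKM in serum ESCs. Its order was that of Sox2 except that the untreated EpiSC value lay above the 1.5 h value. Untreated EpiSCs were 1.61-fold below serum ESCs and 2.00-fold below BMP-4 ESCs, which lies at the 2-fold limit, and the intervals overlapped in both cases.

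Dppa4 (chromosome 16, 48283848 to 48294405) and Dppa2 (chromosome 16, 48310387 to 48319626) differed most between the cell types. Dppa4 stood at 3.20 (0 to 7.15), 2.41 (0 to 5.89) and 2.56 (0 to 6.26) FPKM in untreated, 1.5 h and 24 h EpiSCs, against 114 (51.9 to 176) FPKM in BMP-4 ESCs and 84.2 (37.0 to 131) FPKM in serum ESCs. Dppa2 stood at 6.40 (0.608 to 12.2), 5.14 (0.165 to 10.1) and 5.54 (0.146 to 10.9) FPKM in the EpiSC libraries in the same order, against 61.7 (28.2 to 95.3) FPKM in BMP-4 ESCs and 37.4 (14.8 to 60.0) FPKM in serum ESCs. For both genes the EpiSC values lay together and far below the ESC values. Dppa4 was 20.3-fold lower in untreated EpiSCs than in serum ESCs, and Dppa2 5.19-fold lower. Against BMP-4 ESCs they were 27.4-fold and 8.48-fold lower, and the intervals were apart in all 4 cases. The label of factors shared by both states therefore holds less well for this pair. The EpiSC levels of the pair ranked above 14.4% to 35.7% of the genes at 1 FPKM or more, and those of Foxd3 above 16.3% to 37.5%.

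Foxd3 (chromosome 4, 99322990 to 99325362) was the least abundant of the 8 in the ESC libraries. It stood at 6.86 (0.774 to 12.9), 6.17 (0.829 to 11.5) and 2.71 (0 to 5.76) FPKM in untreated, 1.5 h and 24 h EpiSCs, against 7.35 (1.28 to 13.4) FPKM in BMP-4 ESCs and 12.9 (3.30 to 22.6) FPKM in serum ESCs. The BMP-4 ESCs lay 7.24% above the untreated EpiSCs in FPKM, the 24 h library was the lowest and the serum library the highest. All 5 intervals overlapped.

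With each factor's levels put in order over the 5 libraries, 2 of 32 steps between neighbours had intervals apart. They were the steps from the lower ESC value to the highest EpiSC value for Dppa2 and for Dppa4. All other neighbours in the order did not differ beyond their deposited intervals.

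**Figure D2:**
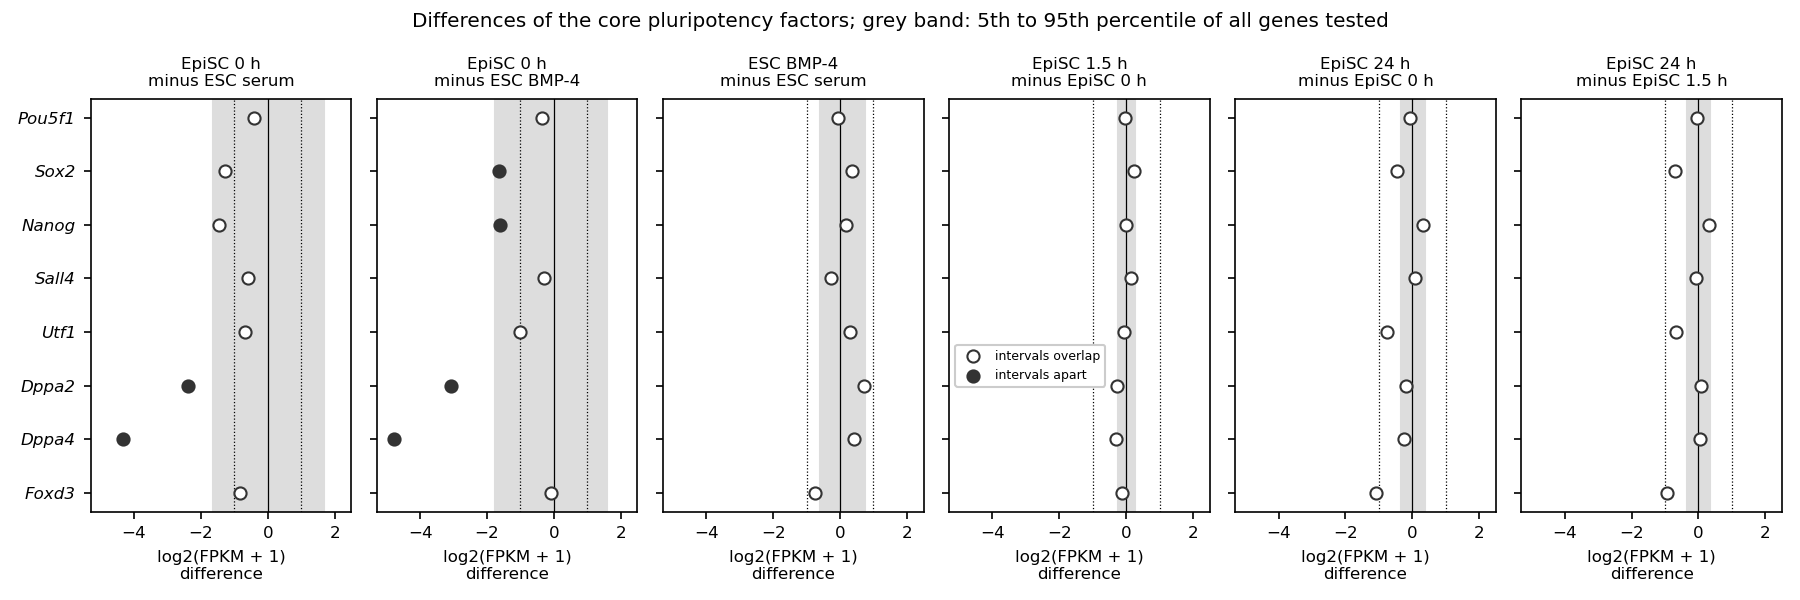
Difference in log2(FPKM + 1) of each factor (x axis) for the 6 comparisons between 2 libraries, 1 panel each; filled points have intervals apart, open points have overlapping intervals, dotted lines mark 2-fold and the grey band spans the 5th to the 95th percentile of all genes tested. Dppa2 and Dppa4 lie left of the band in both comparisons of EpiSCs with ESCs, and Foxd3 lies past 2-fold for 24 h against untreated EpiSCs, at -1.08.

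In number, 4 of 8 factors were at least 2-fold lower in untreated EpiSCs than in serum ESCs and 0 higher, where 9.55% of 11007 genes were lower and 11.6% higher. Their median difference was -1.05 on the log2 scale, against -0.01 over all genes. Compared with BMP-4 ESCs, 5 of 8 were lower and 0 higher, where 10% of all genes were lower and 11% higher, with a median of -1.31 against 0.00 over all genes. The fifth was Utf1, at the limit. Both comparisons use the same untreated EpiSC library. Intervals were apart for 2 and 4 factors, which can be read against 2.84% and 3.11% of all genes lower with intervals apart.

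Between the ESC cultures 0 of 8 factors were 2-fold apart, where 2.61% of all genes were higher and 1.28% lower in BMP-4 ESCs. Of the differences of BMP-4 ESCs minus serum ESCs, the furthest from 0 were 0.71 for Dppa2 and -0.74 for Foxd3, both with overlapping intervals. Dppa4 had a difference of 0.43, Sox2 of 0.36, Utf1 of 0.31 and Nanog of 0.17, while Sall4 had -0.28 and Pou5f1 -0.05. The sign for Pou5f1 turned to 0.02 when each library was scaled to the same sum.

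After 1.5 h of BMP-4, 0 of 8 factors were 2-fold apart from untreated EpiSCs, where 0.236% of all genes were higher and 0.182% lower. The differences ran from -0.30 for Dppa4 to 0.22 for Sox2, and those of Pou5f1 and Nanog were -0.02 and 0.00. After 24 h, 1 of 8, Foxd3, was lower and 0 higher, where 0.527% of all genes were lower and 0.654% higher. Foxd3 was 2.12-fold lower, with overlapping intervals and with approximately 83.1 reads after 24 h and 154 reads in untreated EpiSCs. Utf1 had a difference of -0.75, Sox2 of -0.47 and Nanog of 0.33 after 24 h, all within 2-fold and with overlapping intervals. Foxd3, Utf1, Sox2 and Pou5f1 were lowest at 24 h among the EpiSC libraries, that is 4 of 8 where 38.1% of all genes were, and 1 of 8, Nanog, was highest there, where 37.8% of all genes were. The 1.5 h and 24 h comparisons share the untreated library. Compared directly, 24 h and 1.5 h of BMP-4 had 0 of 8 factors 2-fold apart, where 0.609% of all genes were higher and 0.427% lower after 24 h. Foxd3 had the largest difference, -0.95, which passed 2-fold with a smaller pseudocount.

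Markers of the primed state and of other fates also differed after 24 h. Of 10 primed markers, 4 were lower than in untreated EpiSCs, Lefty1, Otx2, Fgf5 and Sox3, and 1, T, was higher, with a median of -0.65. Among all genes averaging 1 FPKM or more, 0.527% were lower and 0.654% higher. Intervals were apart for Lefty1 and T. The 10, T included, summed to 607 FPKM after 24 h and 804 FPKM in untreated EpiSCs. The summed level of 8 mesoderm markers was 108 FPKM after 24 h and 15.5 FPKM in untreated EpiSCs, with T at least 2-fold higher. Mesp1 and Evx1 also stood higher after 24 h, but both were below 1 FPKM in every other library. They averaged 1 FPKM or more only through the 24 h library, so their direction is not counted. Most of these mesoderm sums was T, which is on the primed list too, at 89.2 FPKM after 24 h and 11.9 FPKM in untreated EpiSCs. For 7 endoderm markers the sum was 8.94 FPKM after 24 h and 25.2 FPKM in untreated EpiSCs, with 1 of 7, Foxa2, lower. For 7 trophoblast markers, most of it Krt8 and Krt18, the sum was 263 FPKM after 24 h and 187 FPKM in untreated EpiSCs. Cdx2 stood higher after 24 h, but it too averaged 1 FPKM or more only through that library, so its direction is not counted. For 8 neural markers, most of it Tubb3, the sum was 17.6 FPKM after 24 h and 25.5 FPKM in untreated EpiSCs, with Neurog2 listed at 0 in all libraries. The part of these markers in the levels of Foxd3, Utf1 and Sox2 was not tested.

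**Figure D3:**
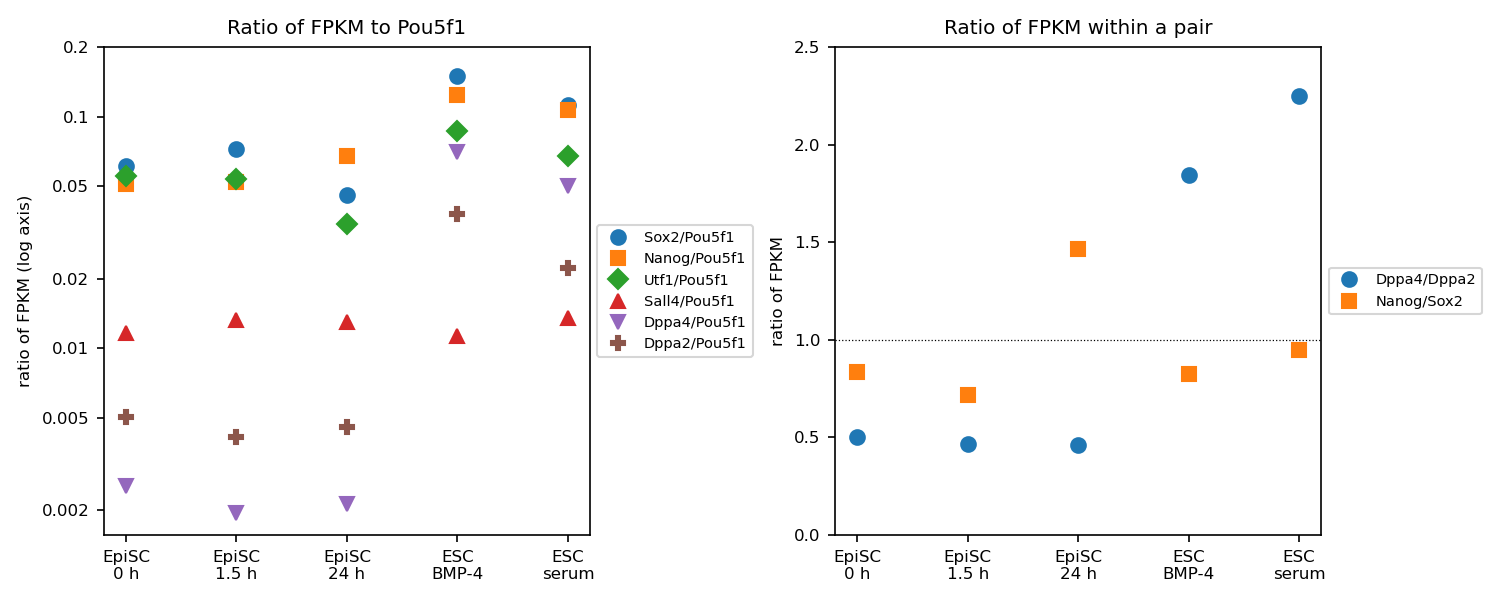
Ratios of FPKM between factors within each of the 5 libraries (x axis), to Pou5f1 on a log axis (left) and within the pairs Dppa4 and Dppa2 and Nanog and Sox2 on a linear axis (right), with 1 point per library. Sall4 keeps a nearly level ratio to Pou5f1. Dppa4 and Dppa2 change order between EpiSCs and ESCs, with overlapping intervals of the pair in every library. The ratio of Nanog to Sox2 is above 1 in the 24 h library alone.

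Ratios within a library do not depend on how libraries were scaled to each other. The ratio of Sall4 to Pou5f1 was 0.0116, 0.0133 and 0.0130 in untreated, 1.5 h and 24 h EpiSCs, against 0.0113 in BMP-4 ESCs and 0.0135 in serum ESCs, so the EpiSC and ESC ratios overlapped. The ratio of Sox2 to Pou5f1 was 0.0611, 0.0727 and 0.0460 in EpiSCs, in the same order, against 0.150 and 0.113 in the ESC libraries. The ratio of Nanog to Pou5f1 was 0.0512, 0.0522 and 0.0674 in EpiSCs, against 0.124 and 0.106 in the ESC libraries. For both ratios every EpiSC value lay under the ESC values.

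Nanog and Sox2 changed order after 24 h of BMP-4. The ratio of Nanog to Sox2 was 0.837, 0.718 and 1.47 in untreated, 1.5 h and 24 h EpiSCs, against 0.827 in BMP-4 ESCs and 0.945 in serum ESCs. The 24 h library was the one library in which Nanog stood above Sox2, and the intervals of the 2 genes overlapped in it. Dppa4 and Dppa2 changed order between the cell types: the ratio of Dppa4 to Dppa2 was 0.500, 0.469 and 0.461 in EpiSCs, against 1.84 and 2.25 in the ESC libraries. The intervals of Dppa4 and Dppa2 overlapped in every library, and the EpiSC levels of Dppa4 rest on approximately 36.5 to 47.1 reads.

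The nearest genes averaging 1 FPKM or more were listed on each side of each factor. On chromosome 16 Dppa4 and Dppa2 lie 15981 bases apart, and the next such gene, Morc1 (48431350 to 48631018), whose product silences transposons in the mouse germline, lies 111723 bases beyond Dppa2. Morc1 stood at 0.165, 0.148 and 0.170 FPKM in untreated, 1.5 h and 24 h EpiSCs, against 114 FPKM in BMP-4 ESCs and 39.9 FPKM in serum ESCs. It was lower in EpiSCs with intervals apart in both comparisons, but it averaged 1 FPKM or more only through the ESC libraries. Its direction is therefore not counted as shared with Dppa2 and Dppa4. On the other side of Dppa4 the nearest such gene, Pvrl3, lies 1786767 bases away and stood at 6.98 FPKM in untreated EpiSCs and 5.12 FPKM in serum ESCs.

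Next to Nanog lie Slc2a3, a glucose transporter gene 13175 bases away, and Dppa3, a germ cell and oocyte factor gene 77217 bases away on the other side. Slc2a3 stood at 94.6, 91.4 and 105 FPKM in untreated, 1.5 h and 24 h EpiSCs, against 213 FPKM in BMP-4 ESCs and 177 FPKM in serum ESCs, an order like that of Nanog with the first 2 EpiSC libraries exchanged. Dppa3 stood at 0.463, 0.690 and 0.908 FPKM in EpiSCs, against 6.28 and 3.03 FPKM in the ESC libraries. It averaged 1 FPKM or more only through the ESC libraries, so its direction is not counted. Other neighbours went with their factor or not. Atp9a, 6195 bases from Sall4, stood at 1.24, 1.32 and 1.55 FPKM in EpiSCs, in the same order, against 4.90 FPKM in BMP-4 ESCs and 3.57 FPKM in serum ESCs. Atp11b, 1076144 bases from Sox2, stood at 14.5, 13.8 and 13.6 FPKM in EpiSCs, against 30.3 and 49.4 FPKM in the ESC libraries. Both were higher in each ESC library, by at least 2-fold over untreated EpiSCs. Tcf19, 1957 bases from Pou5f1, stood at 3.38, 2.78 and 3.19 FPKM in EpiSCs, against 4.79 FPKM in BMP-4 ESCs and 2.97 FPKM in serum ESCs, so that one ESC value lay above the EpiSC values and the other among them. Adam8, 33825 bases from Utf1, stood at 2.03, 1.51 and 1.59 FPKM in EpiSCs, against 0.0731 and 0.0383 FPKM in the ESC libraries. Its average reached 1 FPKM only through the EpiSC libraries, so its direction is not counted either.

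For the 6 factors that spanned at least 2-fold, the most similar profiles among 7319 genes averaging 5 FPKM or more were ranked by the root mean square difference of centred log2(FPKM + 1) over the 5 libraries. The nearest to Nanog were Ulk1, Zbtb43 and Atg2a, at 0.05 to 0.06. The nearest to Sox2 were Itga9, Sycp3 and Pde9a, at 0.09 to 0.12, and the nearest to Utf1 were Tubb2b, Mkrn1 and Nptx2, at 0.11 to 0.13. Dppa2 was closest to Cdyl2, Fam81a and Gtsf1l, at 0.09 to 0.12, and Dppa4 to Rbmxl2, Dusp27 and H2-M5, at 0.16 to 0.18. Foxd3 was closest to Sfrp1, at 0.17, which stood at 21.2, 20.2 and 7.23 FPKM in untreated, 1.5 h and 24 h EpiSCs and at 25.3 and 36.8 FPKM in the ESC libraries. Its next were Znrd1as and Ngfr, both at 0.22. Among the 8 factors themselves, Sox2 and Utf1 were each other's nearest, at 0.23.

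Other regulators of pluripotency differed between the cell types to unequal degrees. Of 25 such genes tested, 8 were lower and 3 higher in untreated EpiSCs than in serum ESCs, with a median of -0.42, where 9.55% of all genes were lower and 11.6% higher. Mybl2, a cell cycle transcription factor, stood at 18.7 FPKM in untreated EpiSCs and 197 FPKM in serum ESCs, Fgf4, a growth factor gene bound by Pou5f1 and Sox2, at 6.42 and 55.2 FPKM, Gdf3, a TGF-beta family ligand gene, at 0.840 and 36.2 FPKM, and Fbxo15 at 3.00 and 118 FPKM, all with intervals apart. Otx2, a homeobox gene of the primed epiblast, stood at 30.1 FPKM in untreated EpiSCs and 2.99 FPKM in serum ESCs, with intervals apart. Lin28b and Tcf7l1 were the other 2 higher genes, with overlapping intervals. Of the lower genes, Gdf3 averaged 1 FPKM or more only through the ESC libraries, so the filter set its direction. L1td1, at 476 and 590 FPKM, and Lin28a, at 143 and 107 FPKM, stayed within 2-fold, as Pou5f1 and Sall4 did. After 24 h of BMP-4, 1 of 25 was lower than in untreated EpiSCs, Otx2 (8.21 and 30.1 FPKM, overlapping intervals), and 0 higher.

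Of 16 genes known as targets of Pou5f1 and Sox2, a list that holds Nanog, Utf1 and Sall4 themselves, several naive markers and some of the regulators above, 10 were lower in untreated EpiSCs than in serum ESCs and 1, Lefty1, was higher (median -2.30), against the same 9.55% and 11.6% of all genes. Lower genes included Zfp42, at 0.531 FPKM in untreated EpiSCs and 1336 FPKM in serum ESCs, Dppa5a at 2.84 and 946 FPKM, Tdh, the threonine dehydrogenase gene, at 0.618 and 226 FPKM, and Esrrb, an orphan nuclear receptor gene, at 0.706 and 132 FPKM, all with intervals apart. Of the lower genes, Zfp42, Tdh, Esrrb and Klf4 stood below 1 FPKM in every EpiSC library. They averaged 1 FPKM or more only through the ESC libraries, so the filter set their direction, and the count and median rest partly on them. Between untreated EpiSCs and serum ESCs, Pou5f1 itself differed by -0.41 on the log2 scale and Sox2 by -1.28.

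The genes for subunits of complexes that work with the factors stayed mostly within 2-fold, as most genes did. Between untreated EpiSCs and serum ESCs, 8684 of 11007 genes were within 2-fold. In that comparison 0 of 12 genes for NuRD and Sin3 subunits were 2-fold apart (median -0.04). Of 11 genes for subunits of the embryonic BAF complex, 0 were 2-fold apart (median -0.13). Against BMP-4 ESCs, Mta1 and Smarce1 were higher, 1 of each list, where 11% of all genes were higher. Among 14 Sox and POU relatives tested, 5 were higher in untreated EpiSCs than in serum ESCs and 4 lower (median 0.49). Of all genes, 11.6% were higher and 9.55% lower. The lower genes, Sox1, Sox15, Pou2f3 and Pou4f2, each stood below 1 FPKM in every EpiSC library, as Sox17 did in both ESC libraries. These genes averaged 1 FPKM or more only through the other cell type. The filter thus set their direction, and the counts are not read as a result. Pou3f1 (Oct6, a factor of the primed epiblast) stood at 24.4 FPKM in untreated EpiSCs and 1.82 FPKM in serum ESCs, Sox11 at 9.52 and 1.28 FPKM and Sox17 at 3.63 and 0.0705 FPKM, all with intervals apart. Sox3, which is close to Sox2 in sequence, stood at 4.55 and 1.11 FPKM with overlapping intervals, and Sox15 was lower, at 0.404 and 7.01 FPKM, with overlapping intervals. Pou4f2, a POU factor of sensory neurons, was lower with intervals apart, at 0.0938 FPKM in untreated EpiSCs and 5.06 FPKM in serum ESCs.

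**Figure D4:**
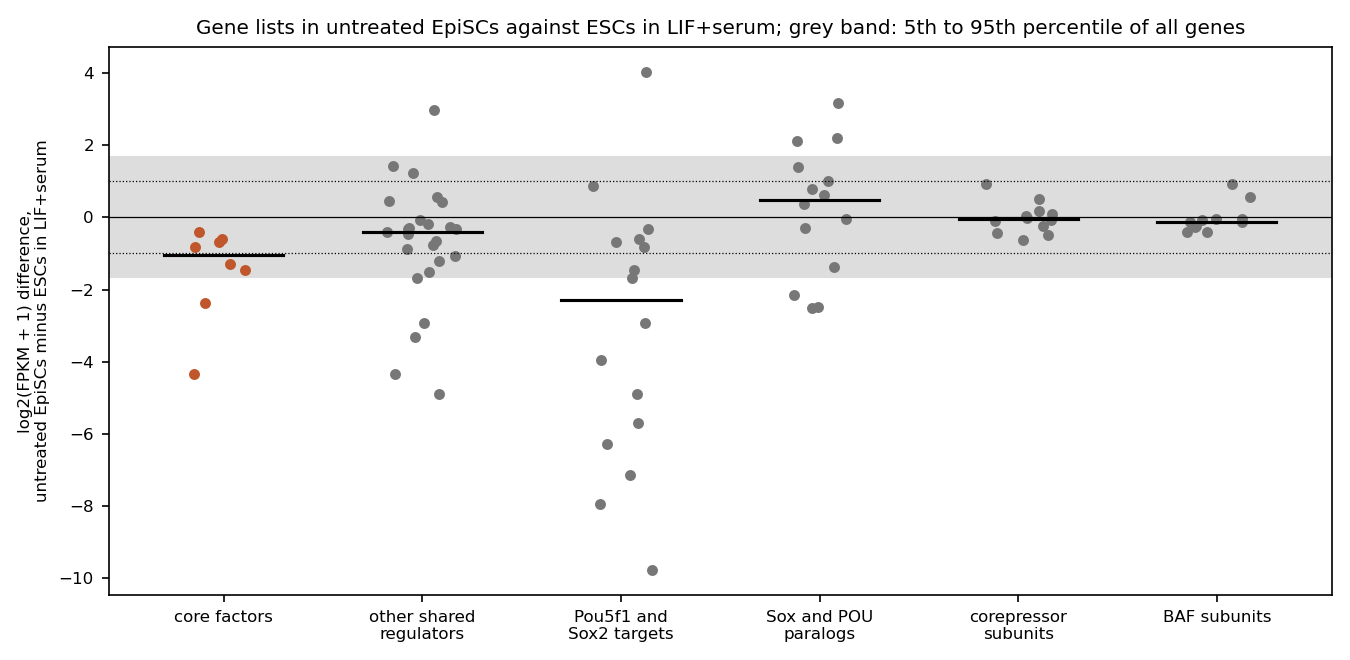
Difference in log2(FPKM + 1) of untreated EpiSCs minus serum ESCs (y axis) for genes of 6 lists (x axis), 1 point per gene averaging 1 FPKM or more, placed at random within its column; short bars are medians, dotted lines mark 2-fold and the grey band spans the 5th to the 95th percentile of all genes. The core factors have a median of -1.05, the Pou5f1 and Sox2 targets, which include 3 of the core factors, -2.30, and the corepressor and BAF subunits -0.04 and -0.13.

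Genes of the earliest cleavage stage that Dppa2 and Dppa4 are known to activate in mouse ESCs were mostly near 0. Of 19 listed, 18 were in the table and 2, Eif1a and Zscan4f, averaged 1 FPKM or more. Eif1a, a translation initiation factor gene, was abundant in all 5 libraries and is not read here as a gene of that stage. It stood at 53.0, 54.5 and 53.6 FPKM in untreated, 1.5 h and 24 h EpiSCs, against 76.3 FPKM in BMP-4 ESCs and 82.5 FPKM in serum ESCs, within 2-fold and with overlapping intervals. The summed level of Zscan4a to Zscan4f, near-identical copies whose single values are uncertain, was listed at 0 in all 3 EpiSC libraries and stood at 17.3 FPKM in BMP-4 ESCs and 0.796 FPKM in serum ESCs. Zscan4f was 5.77-fold higher in BMP-4 ESCs than in serum ESCs, with overlapping intervals. It averaged 1 FPKM or more only through the BMP-4 ESC library, so its direction is not counted.

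Processed copies of several factors exist in the mouse genome, and it is not given how reads with several matches were counted. Of all stretches of 36 bases in the longest GENCODE M21 coding transcript, 42.6% for Dppa4, 32.6% for Dppa2, 19.7% for Pou5f1, 9.15% for Nanog, 5.12% for Sall4, 4.59% for Foxd3 and 0.297% for Sox2 also occur in transcripts of other genes, and 0% for Utf1. How such reads bear on the levels was not tested.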

How the data were processed

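RNA was selected by oligo-dT and made into directional libraries, per the labels' protocols. The authors deposited FPKM per gene with confidence bounds and a status word, made with TopHat and Cufflinks on mm9, per the submitters' processing notes. Not given in the sources used here are the annotation, the use of strand and the scaling between libraries. Status was OK for all 8 factors in all libraries, and 8 other genes lacked it in at least 1. Zfp281, a listed regulator, was left out wherever its status failed.

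Differences are of log2(FPKM + 1), which understates changes of low genes, for genes averaging 1 FPKM or more. A gene counts as higher or lower from a 2-fold difference on. The members and lists were chosen with earlier results of these data known. Named genes were all members, up to 4 higher and 4 lower genes of each list, the nearest neighbours and the 3 most similar profiles; L1td1, Lin28a and Sox2ot were added after their values were seen.

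Depth came from the most frequent FPKM below 0.5 in genes with 1 transcript longer than 1500 nt, less 200 nt, so it is approximate. Starts were turned to 1-based. The calls and the depth estimate were tested on simulated data. Python 3.11.15, pandas 2.3.3 and scipy 1.17.1 were used.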

Additional observations from a re-analysis of the deposited data

Results flagged for a closer look

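Sox2 differed by 0.22 on the log2(FPKM + 1) scale after 1.5 h of BMP-4 and by -0.47 after 24 h, each minus the untreated EpiSCs that both share. It drew attention because the signs are opposite at the 2 times with 1 library each. The difference between the times was not tested, and the intervals overlap.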

How the results depend on the processing

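No paired analysis was possible because groups have no replicates, and so no replicate could be left out. The highest differences that the deposited intervals allow reverse 4 of the called ones: 0.11 for Sox2 and 0.042 for Nanog in untreated EpiSCs over serum ESCs, 0.74 for Utf1 in untreated EpiSCs over BMP-4 ESCs, and 1.93 for Foxd3 after 24 h over untreated EpiSCs. Asking for intervals apart left 2 of the 8 factors with ESC values above EpiSC values. Foxd3 alone became lower after 24 h than after 1.5 h, a count of 1, with a pseudocount of 0.1 (-1.16) and after scaling to the same sum (-1.02). Scaling to the same sum also put 1 other regulator 2-fold higher in BMP-4 ESCs than in serum ESCs, and Utf1 lost its call against BMP-4 ESCs under median-of-ratios (-0.99), upper-quartile (-0.91) and same-sum scaling (-0.94). The same-sum scaling moved the median of all genes in untreated EpiSCs over serum ESCs to 0.10, against -0.01 unscaled. The other counts of factors and other regulators were within 1.5 times under these scalings, without the filter and over genes averaging 5 FPKM or more. At 36.5 to 47.1 reads for Dppa4 in EpiSCs, counting error alone gives a 95% interval reaching 28.6% to 32.4% of its level to each side. Intervals of reads cover counting error only.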
